A study of Mus musculus with 19 samples.

Results

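Kidneys of the group labelled IRLac were compared with sham-operated kidneys to ask how much of the injury was still present after gavage with a Lactobacillus, and which functions of the kidney were near the sham level. The comparison used 10 of the 19 libraries of the series, 5 of IRLac and 5 of sham, taken by the group name in the sample titles. All came from kidneys of male C57BL/6 mice, an inbred laboratory strain, and their age is not stated in the labels. The IRLac mice had been gavaged for 4 weeks, were then injured by ischemia-reperfusion, in which the blood supply of the kidney is stopped and restored, and gave their kidneys on day 5 after it. The design text names Lactobacillus casei Zhang and Lactobacillus acidophilus, and IRLac was read as the second only by elimination, because its abbreviation there differs from the label by a letter. The sham libraries are controls of the operation, and the labels do not say which kidney was sequenced. No gavage is named for them, nor for the 5 libraries labelled IR, which had the same injury and stand beside the comparison here. The labels name no gavaged sham group and no vehicle gavage, so the bacterium, the handling and the injury cannot be told apart in IRLac against sham. The 4 libraries labelled IRLacz entered the filter on low values and the estimate of the spread, and are not compared here. The labels do not tie libraries to single mice, so p-values measure the spread between libraries, which may in part be technical.

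RNA abundance is given as FPKM, a count of fragments scaled for gene length and for the size of the library, as deposited. The sham libraries had 11988 to 12156 entries at 1 FPKM or more, and the IRLac libraries had 12900 to 13240. Read depth is not stated, and the steps in the low values of 93 genes put relative depth between 1.00 and 1.03. IRLac replicate 3 stood apart: its mean correlation with the other IRLac libraries was 0.976 on the log2(FPKM + 1) scale, against 0.978 to 0.984 for those, and its fitted library weight was 0.318, against 0.725 to 1.28. It lay nearer to sham than the other IRLac libraries in 31 of the 42 gene lists with at least 15 tested genes, and values without it stand beside several results below. The tissue label held for its defining genes: uromodulin, nephrin, aquaporin 2 and the phosphate transporter of the proximal tubule were all present in sham. In whole-tissue RNA, fewer cells of a type and less RNA per cell cannot be told apart, which applies to every list of cell type genes.

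The nephron filters blood at the glomerulus and recovers nearly all of the filtrate along the tubule. The proximal tubule does most of this work, burns fatty acids to power it, makes glucose and breaks down amino acids and drugs. It is also the segment most sensitive to a loss of blood flow. Surviving tubule cells lose these specialised functions, express injury genes, divide and later regain their identity, while macrophages and fibroblasts enter or expand in the interstitium and lay down matrix.

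Among the 13594 entries tested, 7885 (58.0%) were higher in IRLac than in sham and 2285 (16.8%) lower, at a limma adjusted p under 0.05. A rise of at least 2-fold on the log2(FPKM + 1) scale was called for 1676 entries (12.3%) and a fall of that size for 453 (3.33%). The 95% interval of the difference lay wholly within 0.5 log2 units of sham for 4870 entries (35.8%), which are called close to sham here. An entry can be both close and called, as 2152 were. Of the 3424 entries that did not pass the test, 2718 were close by this rule and 706 were not, so for the latter a difference was neither shown nor bounded. All IRLac libraries lay above all sham libraries for 6341 entries (46.6%) and below them for 1603 (11.8%). The median difference over all entries was 0.30 and became -0.004 when libraries were scaled by median ratios, which gave 4489 entries higher and 4689 lower. Small differences therefore depend on the scaling, and for lists whose counts differ much the members that kept their call under all 4 scalings tried (deposited FPKM, TPM, median ratio and quantile) are also counted. Under all 4, 25.5% of entries were higher, 15.1% lower, 5.94% at least 2-fold higher, 3.16% at least 2-fold lower and 13.9% close to sham.

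**Figure D1:**
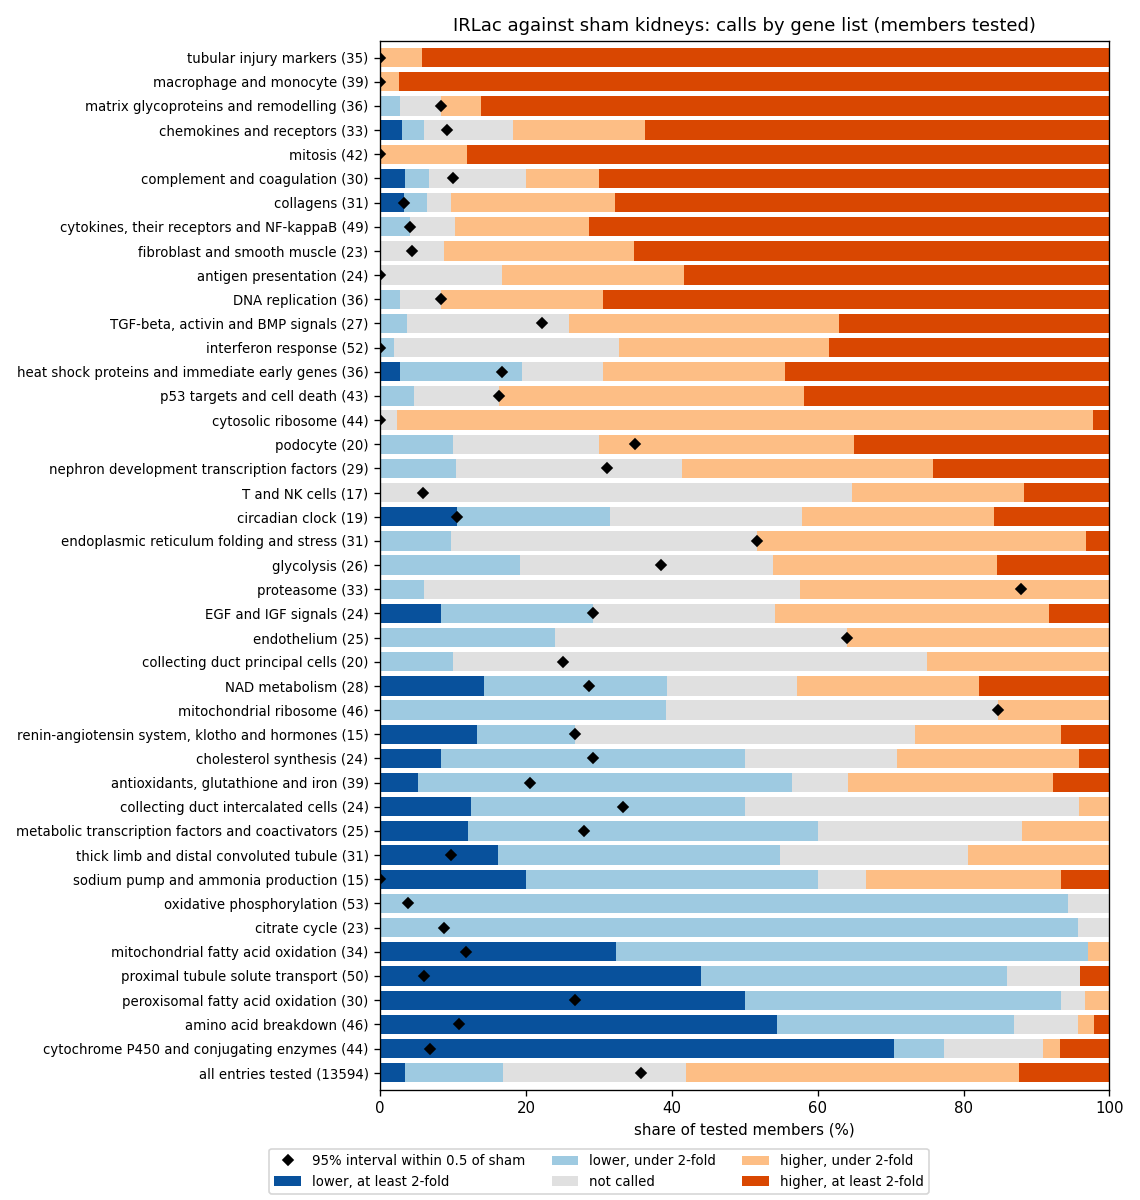
Share of the tested members of each gene list (bars, percent of members, number tested in brackets) that were called lower, not called or called higher in IRLac against sham, with darker ends for at least 2-fold, and diamonds for the share close to sham. Lists have at least 15 tested members and run by median difference. All 35 tubular injury genes were higher, 29 of 33 proteasome genes were close to sham on the FPKM scale, and 31 of 44 cytochrome P450 and conjugating enzyme genes were at least 2-fold lower. Scaling by median ratios moves the list medians down by unequal amounts, and the medians of glycolysis, proteasome, endothelium, collecting duct principal cells, circadian clock, EGF and IGF signals and endoplasmic reticulum folding then fall below 0.

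Injury genes of the tubule remained far above sham. All 35 genes of the tubular injury list rose, 33 of them at least 2-fold, and 34 and 30 did so under all 4 scalings. The list median difference was 2.79 in IRLac against sham and 2.93 in IR against sham, values that share the same sham libraries. Havcr1 (gene ID 171283) encodes kidney injury molecule 1, a receptor that lets tubule cells take up dead neighbours. Havcr1 was at 0.92, 1.31, 1.22, 1 and 1.64 FPKM in sham replicates 1 to 5 and at 546, 739, 211, 462 and 460.0 FPKM in IRLac replicates 1 to 5. IRLac replicate 3 was the lowest of its group, and its value was still far above every sham library. The log2 difference was 7.67 (SE 0.31, limma adjusted p = 1.3e-11). Lcn2 (gene ID 16819), which encodes the iron-scavenging protein lipocalin 2 and is also a neutrophil gene, was at 3.75 ± 0.993 FPKM in sham and 319 ± 101 FPKM in IRLac (mean ± SD, n = 5 in each group, as for all means here). Spp1 (gene ID 20750) encodes osteopontin, a secreted matrix and signalling protein. Spp1 was at 382, 454, 391, 387 and 444 FPKM in sham replicates 1 to 5 and at 7716, 10707, 5744, 10707 and 11473 FPKM in IRLac replicates 1 to 5, so every IRLac library was far above every sham library. Vcam1 (gene ID 22329), an adhesion molecule that marks failed repair of proximal tubule cells, was at 3.24 ± 0.241 FPKM in sham and 102 ± 39 FPKM in IRLac. Sox9, a transcription factor of tubule repair, was at 0.248 ± 0.0719 FPKM in sham and 7.92 ± 2.93 FPKM in IRLac. None of the IRLac libraries overlapped the sham libraries for any gene of this list.

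The largest rises over all entries included other secreted proteins. C3 was at 4.44, 5.06, 4.64, 3.77 and 5.26 FPKM in sham replicates 1 to 5 and at 139, 337, 146, 316 and 409 FPKM in IRLac replicates 1 to 5, and its fitted log2 difference was 5.46 (SE 0.41, limma adjusted p = 4.2e-09). C3 is the central complement component, and its IRLac libraries were spread over a wide range but all above sham. Serpina10, which encodes protein Z-dependent protease inhibitor, was at 0.928 ± 0.326 FPKM in sham and 77.9 ± 21.7 FPKM in IRLac. Aoc1, the diamine oxidase, was at 1.39 ± 0.457 FPKM in sham and 76.1 ± 32 FPKM in IRLac. Krt20, a keratin of simple epithelia, was at 0.086 ± 0.0764 FPKM in sham and 26.2 ± 8.43 FPKM in IRLac. Timp1, an inhibitor of matrix metalloproteinases, was at 2.37 ± 0.474 FPKM in sham and 87.8 ± 33.9 FPKM in IRLac. These genes had no overlap between IRLac and sham, and the smallest log2 difference among them was that of Krt20 at 4.57.

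RNA of proximal tubule transport genes was still below sham. Of 50 solute transport genes tested, 43 were lower and 2 higher, 22 were at least 2-fold lower, and 3 were close to sham. The falls held under all 4 scalings for 42 genes. The list median was -0.91, against -1.01 in IR. Slc34a1 (gene ID 20505) encodes the sodium-phosphate cotransporter of the brush border. Slc34a1 was at 2997, 2642, 2694, 2634 and 2809 FPKM in sham replicates 1 to 5 and at 1219, 977, 1519, 1022 and 852 FPKM in IRLac replicates 1 to 5. All IRLac libraries were below all sham libraries, and the difference was -1.33 (SE 0.19, limma adjusted p = 5e-06). Slc22a7 (gene ID 108114), the organic anion transporter OAT2, fell the most of the list. Slc22a7 was at 183, 232, 223, 242 and 169 FPKM in sham replicates 1 to 5 and at 0.3, 4.32, 36.6, 14.9 and 8.84 FPKM in IRLac replicates 1 to 5. IRLac replicate 1 was near 0 and replicate 3 the highest of the group, and the difference was -4.65 (SE 0.9, limma adjusted p = 0.00015). Slc22a6, the organic anion transporter OAT1, fell by 1.99 on the log2 scale. Slc5a2, the glucose transporter SGLT2, fell by only 0.52 (adjusted p = 0.0054) and did not pass under quantile scaling (-0.31, adjusted p = 0.0871). Slc5a2 was at 266, 214, 246, 217 and 263 FPKM in sham replicates 1 to 5 and at 247, 163, 180.4, 139.5 and 129.7 FPKM in IRLac replicates 1 to 5, so IRLac replicate 1 lay within the sham range.

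Members of the transport list that did not follow were few. Here and below, members that went against their list were chosen after their values were seen. Slc13a1, the sodium-sulfate cotransporter, rose from 122 ± 8.36 FPKM in sham to 251 ± 37.1 FPKM in IRLac, and the efflux pump Abcc4 rose by 1.19. Slc5a1, the glucose transporter SGLT1 of the late proximal tubule, Slc7a7 and Slc7a9, 2 subunits of amino acid exchangers, were close to sham. The interval for Slc5a1 was -0.17 to 0.32. Slc5a12 (-0.21) and Slc6a18 (-0.32) did not pass and were not close.

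Genes for the uptake of filtered protein were split. Lrp2 (megalin) and Cubn (cubilin), the receptors that bind filtered proteins, fell by 1.21 and 1.06 on the log2 scale. Lrp2 was at 152, 143, 127, 133 and 151 FPKM in sham replicates 1 to 5 and at 58.4, 69, 76.5, 47.7 and 54 FPKM in IRLac replicates 1 to 5, with no overlap between the groups. Dab2, the adaptor that links megalin to endocytosis, was at 98.9 ± 8.16 FPKM in sham and 104 ± 19.5 FPKM in IRLac (interval -0.17 to 0.28), and its small positive difference turned to -0.3 with median-ratio scaling. The subunit gene Amn and the chloride transporter gene Clcn5 were also close to sham, and these 3 did not pass the test. In all, 8 of 14 genes of the protein reabsorption list were lower, 3 higher and 6 close to sham. With median-ratio scaling only 2 of the 14 remained close.

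RNA of genes for glucose synthesis was among that furthest below sham. All 14 genes of the gluconeogenesis and fructose list passed: 12 were lower, 10 of them at least 2-fold, and the list median was -1.31, against -1.33 in IR. G6pc (gene ID 14377) encodes the enzyme that releases free glucose. G6pc was at 423, 351, 268, 294 and 329 FPKM in sham replicates 1 to 5 and at 80.1, 40.6, 75.6, 40.9 and 40.0 FPKM in IRLac replicates 1 to 5. All IRLac libraries were far below all sham libraries, and the log2 difference was -2.62 (SE 0.28, limma adjusted p = 2e-07). Pck1, the cytosolic enzyme of the first committed step, was at 825 ± 59.3 FPKM in sham and 153 ± 39.4 FPKM in IRLac. The 2 genes that rose, Pck2 (1.01) and Fbp2 (1.22), encode the mitochondrial and the muscle form of enzymes whose proximal tubule forms, Pck1 (-2.45) and Fbp1 (-1.49), fell.

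Most genes for the breakdown of amino acids and of foreign compounds followed the same direction. In the amino acid breakdown list 40 of 46 genes were lower, 25 at least 2-fold, with a median of -1.11. Hpd (gene ID 15445), a dioxygenase of tyrosine breakdown, was among the largest falls of all entries. Hpd was at 48.8, 34.5, 37.1, 32.6 and 39 FPKM in sham replicates 1 to 5 and at 0.3, 6.38, 4.78, 1.43 and 1.77 FPKM in IRLac replicates 1 to 5. The groups were widely separated, with IRLac replicate 1 near 0. Dpys, which degrades pyrimidines, was at 14.6 ± 3.08 FPKM in sham and 2.42 ± 1.09 FPKM in IRLac. Arg2, the mitochondrial arginase, went the other way (3.03 ± 0.644 FPKM in sham and 26.1 ± 7.74 FPKM in IRLac), as did Kynu (0.51), an enzyme of tryptophan breakdown. Only Arg2 stayed higher under all 4 scalings. Qprt, Asl and Prodh2 were close to sham and not called. In the list of cytochrome P450 and conjugating enzymes 34 of 44 genes were lower, 31 at least 2-fold, with a median of -1.40. Ugt3a1, a glycosyltransferase, was at 171 ± 11.1 FPKM in sham and 29.6 ± 9.54 FPKM in IRLac. The 4 that rose were Cyp4a12b (1.45), Cyp27b1 (1.26), which activates vitamin D, Ugt1a2 (1.07) and Sult1c2 (0.25), and 2 of them did so under all 4 scalings. Genes of P450 and glucuronosyltransferase families have near-identical copies, so their single levels are uncertain.

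RNA of most genes for fatty acid oxidation was below sham for both organelles. In mitochondria 33 of 34 genes were lower and 11 at least 2-fold (median -0.73), and in peroxisomes 28 of 30 were lower and 15 at least 2-fold (median -1.0). With median-ratio scaling 24 of the mitochondrial genes were at least 2-fold lower. Acadm (gene ID 11364) encodes medium-chain acyl-CoA dehydrogenase. Acadm was at 508, 580.3, 505, 608 and 546 FPKM in sham replicates 1 to 5 and at 108, 162, 263, 151 and 153 FPKM in IRLac replicates 1 to 5, a fitted difference of -1.77 on the log2 scale (SE 0.22, limma adjusted p = 1.3e-06). Ehhadh, the peroxisomal bifunctional enzyme, was at 331 ± 12 FPKM in sham and 81.8 ± 26.3 FPKM in IRLac. Cpt1a, which admits fatty acids to mitochondria, fell less, by 0.71. Fabp1, a fatty acid carrier, was higher on the FPKM scale (0.59), but no mitochondrial gene was called higher with median-ratio or quantile scaling. Nudt7, a peroxisomal coenzyme A diphosphatase, was not called, with an interval of -0.22 to 0.19.

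Genes of the respiratory chain and the citrate cycle were lower by a smaller and more even amount. Of 53 oxidative phosphorylation genes 50 were lower, none at least 2-fold, and the median was -0.52. With median-ratio scaling all 53 were lower, 13 at least 2-fold, with a median of -0.87, and 44 were lower under all 4 scalings. Of 23 citrate cycle genes 22 were lower, again none at least 2-fold, with a median of -0.65. With median-ratio scaling all 23 were lower, 12 at least 2-fold, with a median of -1.0, and 21 were lower under all 4 scalings. Sdhb, a subunit of succinate dehydrogenase that serves both pathways, shows how the libraries varied. Sdhb was at 409.6, 394, 443, 405 and 403 FPKM in sham replicates 1 to 5 and at 184, 214, 305, 215 and 225 FPKM in IRLac replicates 1 to 5. IRLac replicate 3 was the highest of its group but below all sham libraries. For the oxidative phosphorylation list as a whole, replicate 3 sat at -0.04 against the sham mean, where the other IRLac libraries lay between -0.76 and -0.45. Without it all 53 genes of this list and all 23 of the citrate cycle were lower. The 3 genes not called with it were Uqcr10, Ndufa2 and Uqcrh.

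Among transcription factors known to control metabolic genes the median fall was smaller, with a list median of -0.38, although single genes fell further. Hnf4a, a transcription factor that keeps proximal tubule identity, was at 212 ± 14.9 FPKM in sham and 132 ± 21.1 FPKM in IRLac (-0.69). Ppargc1a, a coactivator of mitochondrial genes, was at 10.3 ± 1.12 FPKM in sham and 7.81 ± 1.89 FPKM in IRLac, and its adjusted p of 0.015 became 0.0536 without IRLac replicate 1. Ppargc1a was at 10.4, 11, 9.45, 8.94 and 11.7 FPKM in sham replicates 1 to 5 and at 5.37, 7.18, 9.44, 7.05 and 9.99 FPKM in IRLac replicates 1 to 5, so the groups overlapped in replicates 3 and 5. Of 25 metabolic transcription factors and coactivators 15 were lower, 3 higher and 7 close to sham. At least 2-fold lower were 3, also under all 4 scalings, against 3.33% of all entries, and Ppard (-2.17) and Esrrb (-1.15) were among them. The 3 that rose were Nr1i2, Nrf1 and Pparg, and 1 of them did so under all 4 scalings. Nr1h3, the liver X receptor, fell by 0.62, and Gabpa, a regulator of mitochondrial genes, was close to sham (interval -0.13 to 0.17).

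Genes of glycolysis, in contrast to those of oxidation, had no common direction. Of 26 genes 12 were higher, 5 lower and 10 close to sham, and the list median of 0.18 turned to -0.15 with median-ratio scaling. Of all entries 58.0% were higher, 16.8% lower and 35.8% close. The lower and close shares of the list were near these. Under all 4 scalings 6 were higher, 3 lower and 4 close, shares near the 25.5%, 15.1% and 13.9% of all entries. The genes at least 2-fold higher were Hk2 (0.204 ± 0.0594 FPKM in sham and 3.8 ± 1.24 FPKM in IRLac), a hexokinase low in the healthy tubule, Eno2 (1.62), Slc16a3 (1.33), which exports lactate, and Hk3 (1.24). Pfkp, the platelet form of phosphofructokinase, was at 21 ± 2.45 FPKM in sham and 39.9 ± 1.79 FPKM in IRLac. Core enzymes of the pathway, Gpi1, Aldoa, Pgam1, Eno1 and Ldha, were not called and were close to sham. For Gpi1 the interval was -0.06 to 0.18, and median-ratio scaling put it at -0.3.

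Further along the nephron the falls were less uniform, with large falls in single genes. The list of the thick ascending limb, which reabsorbs salt without water, and the distal convoluted tubule had 17 of 31 genes lower, 6 higher, 5 at least 2-fold lower and 3 close to sham. Its median was -0.44 in IRLac and -0.72 in IR. Egf (gene ID 13645) encodes epidermal growth factor, made in these segments. Egf was at 417, 483, 535, 442 and 531 FPKM in sham replicates 1 to 5 and at 6.06, 30.8, 119, 41.6 and 62.5 FPKM in IRLac replicates 1 to 5. IRLac replicate 3 was the highest of its group and still far below sham, and the difference was -3.69 (SE 0.6, limma adjusted p = 2.6e-05). Slc12a1 (gene ID 20495) encodes NKCC2, the salt carrier of the thick limb. Slc12a1 was at 181, 293, 305, 286 and 249.6 FPKM in sham replicates 1 to 5 and at 44.1, 90.4, 247, 103 and 189.8 FPKM in IRLac replicates 1 to 5. IRLac replicates 3 and 5 lay inside the sham range and the other 3 below it, and the difference was -1.17 (SE 0.36, limma adjusted p = 0.0065). Slc12a3, the thiazide-sensitive carrier of the distal tubule, was at 221 ± 26.4 FPKM in sham and 117 ± 42.2 FPKM in IRLac with no overlap. Pvalb, parvalbumin of the distal tubule, fell from 33.5 ± 2.74 to 2.39 ± 1.85 FPKM.

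Umod, which encodes uromodulin, the main protein of normal urine, was not called. Umod was at 1328, 1933, 2041, 1712 and 1729 FPKM in sham replicates 1 to 5 and at 647, 927, 2176, 1430.1 and 1992 FPKM in IRLac replicates 1 to 5. The IRLac libraries ran from far below to above the sham range, with an interval of -0.96 to 0.14, so Umod was neither shown to differ nor close to sham. Without IRLac replicate 3 its difference was -0.60 (adjusted p = 0.0397). Without that replicate 21 genes of the list were lower. The 6 genes above sham were Cldn14, Atp2b1, Trpv5, Cldn19, Stk39 and Cldn16, which handle calcium, magnesium or the control of salt carriers, and 1 of them stayed higher under all 4 scalings. Cnnm2, a magnesium transport gene, was close to sham at 16.4 ± 0.612 FPKM in sham and 15.5 ± 1.32 FPKM in IRLac.

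The collecting duct adjusts water and acid, through its principal and intercalated cells. Of 20 principal cell genes 5 were higher, 2 lower and 5 close to sham, none at least 2-fold, and 1 was close under all 4 scalings. These 5 are a smaller share than the 35.8% of all entries close to sham. The level of the list ran from -0.39 in IRLac replicate 1 to 0.4 in replicate 5, beyond the sham range of -0.1 to 0.07 on both sides. The list median of 0.03 was -0.31 with median-ratio scaling and -0.23 with quantile scaling, and without IRLac replicate 3 it was -0.02, with 5 genes lower. Aqp2 (gene ID 11827) encodes the vasopressin-regulated water channel. Aqp2 was at 172, 219, 259.5, 318 and 218 FPKM in sham replicates 1 to 5 and at 205, 277, 633, 446 and 411 FPKM in IRLac replicates 1 to 5. IRLac replicates 3 to 5 were above all sham libraries and the other 2 within the sham range, and the difference of 0.65 just missed the threshold (adjusted p = 0.059), passing without IRLac replicate 1 (0.86, adjusted p = 0.0140) and under some other settings. Scnn1a, a subunit of the epithelial sodium channel, fell by 0.69, and Kcnj1, the potassium channel ROMK, by 0.78. Nedd4l, which removes that sodium channel from the membrane, was at 15.8 ± 1.06 FPKM in sham and 15.7 ± 1.57 FPKM in IRLac, and was called lower with median-ratio scaling (-0.35, adjusted p = 8.82e-05) and quantile scaling (-0.29, adjusted p = 0.000709).

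Intercalated cell genes were lower in 12 of 24 cases, 3 at least 2-fold, with 1 higher, 8 close to sham and a median of -0.38, against -0.56 in IR. Without IRLac replicate 3, 15 were lower and none higher, with a median of -0.51, and 1 was close under all 4 scalings with all libraries. Slc26a4 was at 37.2, 31.4, 29.7, 29.1 and 34.6 FPKM in sham replicates 1 to 5 and at 19.5, 17, 22.5, 15.8 and 16.2 FPKM in IRLac replicates 1 to 5. Slc26a4 encodes pendrin, a chloride-bicarbonate exchanger, and its groups did not overlap. Oxgr1 (-1.29), a receptor for 2-oxoglutarate, Slc4a1 (-1.48), the anion exchanger also found in red blood cells, and Rhbg (-1.14), an ammonia channel, fell at least 2-fold. The close genes were Car2, which makes bicarbonate, Atp6v0d2, a proton pump subunit, Foxi1, the factor that specifies these cells, Adgrf5, Car15, Dmrt2, Kit and Slc4a8. These 8 are a share near the 35.8% of all entries, while the share of lower genes was above the 16.8% of all entries. Car2 was at 201, 194, 210.3, 180.3 and 201 FPKM in sham replicates 1 to 5 and at 168, 199.8, 199.7, 176 and 215 FPKM in IRLac replicates 1 to 5. For Car2, IRLac replicates 1 and 4 lay below the sham range, replicate 5 above it and the other 2 within it. In the direct test of IRLac against IR, 10 of the 24 genes were higher at an unadjusted p under 0.05, against 2.24% of all entries, and none passed after adjustment.

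**Figure D2:**
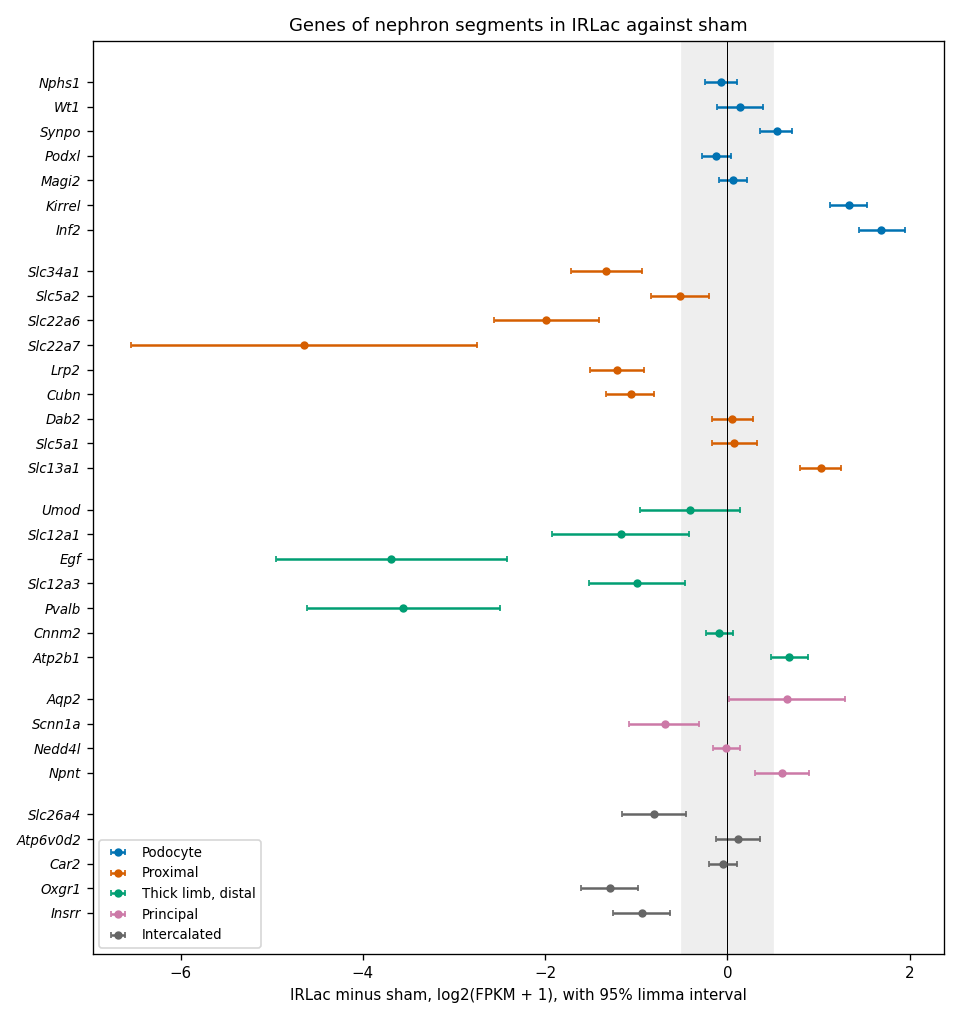
Log2 difference of IRLac minus sham with its 95% limma interval for genes of 5 parts of the nephron, on the log2(FPKM + 1) scale (5 libraries per group). The grey band marks 0.5 log2 units on each side of sham. Nphs1, Dab2, Cnnm2, Nedd4l and Car2 are among those inside it, while Slc22a7 (-4.65), Egf (-3.69) and Pvalb (-3.56) lie furthest below sham. Median-ratio scaling moves the genes downwards by unequal amounts and puts some small positive differences, among them those of Wt1, Dab2 and Magi2, below 0, and quantile scaling turns the signs of Wt1, Magi2 and Car2.

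Podocytes are the cells that wrap the glomerular filter. Of 20 podocyte genes 14 were higher, 2 lower and 7 close to sham, with a median of 0.50, and 8 were higher under all 4 scalings. Of all entries 58.0% were higher, 16.8% lower and 35.8% close, and 25.5% were higher under all 4 scalings. The close share of the list was thus near that of all entries. Nphs1 (gene ID 54631) encodes nephrin, the backbone of the slit diaphragm. Nphs1 was at 7.37, 6.36, 6.95, 6.06 and 7.08 FPKM in sham replicates 1 to 5 and at 6.55, 6, 5.67, 7.34 and 6.4 FPKM in IRLac replicates 1 to 5. IRLac replicates 2 and 3 lay below the sham range and the other 3 within it. The interval was -0.25 to 0.11, but with median-ratio scaling Nphs1 was called lower (-0.39, adjusted p = 0.000487). Wt1 (-0.11 to 0.39), Podxl (-0.28 to 0.04) and Magi2 (-0.09 to 0.21) were close to sham as well, and none of the 20 was close under all 4 scalings. Without IRLac replicate 3 Wt1 was called higher (0.24, adjusted p = 0.0497). Inf2, a formin that builds actin filaments, was at 2.69 ± 0.184 FPKM in sham and 11.1 ± 2.14 FPKM in IRLac, and Kirrel, a partner of nephrin, at 2.33 ± 0.247 FPKM in sham and 7.41 ± 1.01 FPKM in IRLac. Further genes higher at least 2-fold, among them Nes, Myh9, Cd2ap and Tcf21, are also expressed in other kidney or immune cells, and macrophage genes rose in the same libraries. The part of those cells was not tested.

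Endothelial genes differed little from sham on the FPKM scale, and this depended on the scaling. Of 25 genes 16 were close, 9 higher and 6 lower, none at least 2-fold, and the median of 0.09 turned to -0.24 with median-ratio scaling, which left 11 close, 1 higher and 12 lower. Under all 4 scalings 4 of the 25 were close, a share near the 13.9% of all entries. Pecam1, the general endothelial adhesion gene, was at 18.6 ± 1.52 FPKM in sham and 21.3 ± 1.47 FPKM in IRLac and was called higher by 0.18, a sign that turned with median-ratio (-0.16) and quantile scaling (-0.08). The call on Pecam1 was lost without sham replicate 2 (0.16, adjusted p = 0.0658), sham replicate 5 (0.16, adjusted p = 0.0617) or IRLac replicate 4 (0.14, adjusted p = 0.0755). Kdr, the main VEGF receptor, fell from 12.8 ± 1.82 to 7.8 ± 0.636 FPKM, with no overlap. Its ligand gene Vegfa, made mostly by tubule cells and podocytes, fell by 0.52. Nrp1, a VEGF co-receptor also present on other cells, rose by 0.85. Ptprb, the endothelial phosphatase, was at 5.02 ± 0.429 FPKM in sham and 5.17 ± 0.111 FPKM in IRLac.

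Hormone genes had no common direction. Ace, angiotensin converting enzyme of the brush border, fell by 1.62, and Pth1r, the parathyroid hormone receptor, by 0.67. Klotho, a co-receptor for the phosphate hormone FGF23, was not called and not close. Kl was at 14.4, 7.8, 14.3, 24.4 and 11.5 FPKM in sham replicates 1 to 5 and at 9.32, 8.48, 10.2, 14.5 and 2.01 FPKM in IRLac replicates 1 to 5, and IRLac replicate 5 alone was far below sham. Ren1 (renin) was at 73.6 ± 15.9 FPKM in sham and 58 ± 17.1 FPKM in IRLac, with an interval of -0.81 to 0.09, and was called lower without IRLac replicate 1 (-0.51, adjusted p = 0.0365). Cyp27b1 and Agt, the angiotensin precursor (0.56), were higher. Of the 15 genes tested 4 were higher, 4 lower and 4 close, and 2, 4 and 2 were so under all 4 scalings. Over all entries these shares were 58.0%, 16.8% and 35.8%, and 25.5%, 15.1% and 13.9% under all 4 scalings.

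Matrix genes stayed high. Of 31 collagen and laminin genes 28 were higher, 21 at least 2-fold (median 1.5), and of 36 genes of matrix glycoproteins and remodelling 33 were higher, 31 at least 2-fold (median 1.84). Col3a1 (gene ID 12825) encodes a fibrillar collagen of the interstitium. Col3a1 was at 11.7, 14.5, 9.72, 11.6 and 10.4 FPKM in sham replicates 1 to 5 and at 315, 241, 186, 299.7 and 255 FPKM in IRLac replicates 1 to 5. All IRLac libraries were many times above all sham libraries, and the difference was 4.36 (SE 0.14, limma adjusted p = 3.5e-13). Col1a1 was at 12.9 ± 1.48 FPKM in sham and 168 ± 52 FPKM in IRLac and Fn1, fibronectin, at 6.15 ± 0.935 FPKM in sham and 54.9 ± 14.9 FPKM in IRLac. The 2 genes of the first list that fell were Col4a3 (-1.09) and Col4a4 (-0.73), chains of the mature glomerular basement membrane. Lama1 was close to sham (interval -0.13 to 0.24). Timp3, a metalloproteinase inhibitor, fell by 0.64, while Fbln5, an elastic fibre protein, and Plau, the urokinase gene, were close to sham.

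Fibroblast and smooth muscle genes rose in 21 of 23 cases (median 1.22). Acta2, the smooth muscle actin of myofibroblasts, was at 17.9 ± 2.17 FPKM in sham and 87.7 ± 36.6 FPKM in IRLac and Pdgfrb, a receptor of pericytes and fibroblasts, at 8.48 ± 1.31 FPKM in sham and 30.5 ± 3.17 FPKM in IRLac. Acta2 was at 15.6, 20.8, 18.3, 15.9 and 18.8 FPKM in sham replicates 1 to 5 and at 146, 83.2, 49.7, 92.6 and 66.7 FPKM in IRLac replicates 1 to 5, so IRLac replicate 1 was the highest and replicate 3 the lowest of the group. Pdgfc and Meox1 did not pass, and Pdgfc was close to sham. In the TGF-beta, activin and BMP list 20 of 27 genes rose, including the ligand gene Tgfb1 (8.78 ± 1.29 FPKM in sham and 50.7 ± 14.1 FPKM in IRLac) and its target Tgfbi (6.48 ± 0.76 FPKM in sham and 40.4 ± 8.58 FPKM in IRLac). Bmp7, a factor that protects tubule cells, fell by 0.54. The receptor gene Acvr2a and Smad7, an inhibitor of the pathway, were close to sham. Without IRLac replicate 3 Acvr2a was called higher (0.18, adjusted p = 0.0458).

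Growth factors of the EGF and IGF families were divided, with 11 of 24 genes higher, 7 lower and 7 close, and a median of 0.10 that turned to -0.16 with median-ratio scaling. Calls held under all 4 scalings for 4 of the higher and 6 of the lower genes. The ligand genes Hbegf (7.4 ± 0.421 FPKM in sham and 16.4 ± 3.06 FPKM in IRLac) and Nrg1 (1.04) rose at least 2-fold, while Egf and Igfbp3 (112 ± 16.3 FPKM in sham and 51.6 ± 6.91 FPKM in IRLac) fell at least 2-fold. The receptor gene Igf1r was close to sham (-0.23 to 0.03).

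Macrophage genes rose without exception: all 39 were higher, 38 of them at least 2-fold and 35 so under all 4 scalings. The list median was 2.60, against 3.03 in IR. C1qa (gene ID 12259) encodes a chain of complement C1q, made by tissue macrophages. C1qa was at 20.6, 25.1, 29.8, 24.6 and 19 FPKM in sham replicates 1 to 5 and at 222, 171, 124, 259 and 209 FPKM in IRLac replicates 1 to 5. Replicate 3 was again the lowest IRLac library, and it was still well above the highest sham library. Adgre1, a surface receptor that marks macrophages, was at 1.84 ± 0.473 FPKM in sham and 16.4 ± 3.92 FPKM in IRLac, Cx3cr1, the fractalkine receptor, at 1.82 ± 0.308 FPKM in sham and 15.2 ± 2.51 FPKM in IRLac, and Lyz2, lysozyme of myeloid cells, at 24.9 ± 4.83 FPKM in sham and 619.6 ± 228 FPKM in IRLac. In the direct test of IRLac against IR, 6 of the 39 genes were lower at an unadjusted p under 0.05, against 3.54% of all entries, and none passed after adjustment.

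Chemokines and cytokines followed. Of 33 chemokine and receptor genes 27 were higher, 21 at least 2-fold, and of 49 genes of cytokines, their receptors and NF-kappaB 44 were higher, 35 at least 2-fold. Ccl2 (gene ID 20296) encodes the chemokine that recruits monocytes. Ccl2 was at 0.38, 0.29, 1.13, 1.77 and 0.88 FPKM in sham replicates 1 to 5 and at 60.9, 56.8, 16.9, 43.2 and 41.3 FPKM in IRLac replicates 1 to 5. The difference was 4.51 (SE 0.34, limma adjusted p = 4.5e-09), and IRLac replicate 3 was again lowest. Il1b and Tnf, cytokines of activated macrophages, stayed at low levels, at 0.786 ± 0.41 FPKM in sham and 2.09 ± 0.804 FPKM in IRLac and at 0.172 ± 0.118 FPKM in sham and 0.986 ± 0.242 FPKM in IRLac. Il1b was at 0.95, 0.32, 0.67, 1.4 and 0.59 FPKM in sham replicates 1 to 5 and at 1.43, 2.08, 1.28, 2.41 and 3.27 FPKM in IRLac replicates 1 to 5, so IRLac replicate 3 lay inside the sham range. Il1b missed the threshold under quantile scaling (0.26, adjusted p = 0.125), and Tnf did too (0.23, adjusted p = 0.0993). Socs3, a feedback inhibitor of cytokine receptors, was at 1.65 ± 0.288 FPKM in sham and 28 ± 6.89 FPKM in IRLac and Cd14, the endotoxin co-receptor, at 4.53 ± 0.302 FPKM in sham and 50.8 ± 14 FPKM in IRLac. The genes that fell were the chemokine genes Ccl19 (-1.22) and Cxcl12 (-0.55), the death ligand gene Tnfsf10 (-0.73) and the receptor gene Lifr (-0.26). Il18 was not called and not close to sham (-0.37 to 0.54), and the chemokine gene Ccl25 was close (-0.26 to 0.28).

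In the complement and coagulation list 24 of 30 genes rose, 21 at least 2-fold, including C1qb (22.5 ± 3.62 FPKM in sham and 217 ± 52.9 FPKM in IRLac) and C1qc (19 ± 4.35 FPKM in sham and 184 ± 46.6 FPKM in IRLac). Serpina1d, a member of the alpha-1-antitrypsin family, had the largest fall of the entries named here. Serpina1d was at 145, 172, 204, 161 and 169 FPKM in sham replicates 1 to 5 and at 1.05, 4.21, 15.1, 7.23 and 7.69 FPKM in IRLac replicates 1 to 5, a difference of -4.69 (SE 0.72, limma adjusted p = 1.3e-05). This family has near-identical copies, so reads may be divided among them. The other fall was Cd55 (-0.49), and Cd59a was close to sham. Both protect cells from complement. Antigen presentation genes rose in 20 of 24 cases, with a median of 1.18 against 1.57 in IR. Tested directly against IR, 14 of the 24 were lower at an unadjusted p under 0.05, against 3.54% of all entries. None passed after adjustment, and Tap1, Psmb8 and Psmb9 are also in the interferon list. H2-Ab1 was at 109, 118, 152, 137 and 103 FPKM in sham replicates 1 to 5 and at 207, 253, 316, 570.2 and 458 FPKM in IRLac replicates 1 to 5. H2-Ab1 encodes a chain of MHC class II, and its IRLac values were widely spread while all exceeded sham. The class I genes H2-Q6, H2-Q7 and H2-T23 and the peptide transporter gene Tap1 did not pass. H2-Q7 was at 18 ± 2.17 FPKM in sham and 20.1 ± 3.96 FPKM in IRLac and at 34.6 ± 10.4 FPKM in IR. Class I genes are near-identical copies, so their single levels are uncertain.

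The interferon response was the list with the largest share of genes below IR. Interferon-stimulated genes carry out defence against viruses and are switched on by the STAT and IRF factors. Of 52 genes tested 35 were higher in IRLac than in sham, 20 at least 2-fold, 1 was lower and none was close, with a median of 0.88. Under all 4 scalings 17 were higher and 7 at least 2-fold, and with median-ratio scaling 23 and 9, with a median of 0.59. In IR the median on the FPKM scale was 1.97. Isg15 (gene ID 100038882) encodes a ubiquitin-like modifier. Isg15 was at 5.92, 5.53, 10.5, 8.19 and 4.85 FPKM in sham replicates 1 to 5 and at 14.6, 11.4, 9.92, 25 and 17.7 FPKM in IRLac replicates 1 to 5, and at 119.9, 38.8, 89.9, 126 and 11 FPKM in IR replicates 1 to 5. IRLac replicate 3 lay inside the sham range, 4 IR libraries lay above every IRLac library, and IR replicate 5 lay within the IRLac range. The difference from sham was 1.04 (SE 0.5, limma adjusted p = 0.066), short of the threshold. The difference from IR was -1.87 (SE 0.5, limma adjusted p = 0.287). Ifit1 (gene ID 15957), an RNA-binding antiviral protein, was at 1.99 ± 0.611 FPKM in sham and 3.49 ± 0.919 FPKM in IRLac and at 18.8 ± 13 FPKM in IR. Irf7 (gene ID 54123), the factor that amplifies the response, was at 11.1 ± 4 FPKM in sham and 19.5 ± 4.97 FPKM in IRLac and at 143 ± 93.5 FPKM in IR. Both missed the threshold against sham with adjusted p of 0.258 and 0.2, and fits of the IRLac and sham libraries alone called Isg15, Ifit1 and Irf7 higher (adjusted p of 0.00202, 0.00551 and 0.00458).

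Ifit3b (4.16 ± 0.841 FPKM in sham and 20.1 ± 3.25 FPKM in IRLac) and Irf8 (7.87 ± 0.727 FPKM in sham and 16 ± 2.26 FPKM in IRLac), a factor also active in macrophages, passed against sham. The list member that fell was Rsad2 (-0.52), and Cmpk2, its neighbour in function, was at 7.81 ± 0.562 FPKM in sham and 6.33 ± 0.468 FPKM in IRLac, with all IRLac libraries below all sham libraries but an adjusted p of 0.197. Cmpk2 was called lower in the fit of IRLac and sham alone (-0.26, adjusted p = 0.00493), with median-ratio scaling (-0.58, adjusted p = 0.00684) and with quantile scaling (-0.66, adjusted p = 0.00355). In IRLac against IR, 46 of the 52 genes were lower at an unadjusted p under 0.05, against 3.54% of all entries, with a list median of -0.98. None of the 52 passed after adjustment. Over all entries 1 of 13594 was called between IRLac and IR (0.00736%), and 786 had an unadjusted p under 0.05. That entry is an unnamed locus, BGI_novel_G000424, listed at 0 in every IRLac library, where a 0 can be a failed estimate.

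The test against IR turned on a single library. The interferon list level, as the median over members of log2(FPKM + 1) minus the sham mean, was 2.5, 1.68, 2.1, 2.45 and 0.8 in IR replicates 1 to 5 and 0.68, 0.77, 0.55, 1.11 and 1.24 in IRLac replicates 1 to 5. IR replicate 5 was the lowest of its group and lay within the IRLac range. Without it 110 entries were lower in IRLac than in IR at an adjusted p under 0.05 (0.809%) and 6 higher (0.0441%), and 36 of the 52 interferon genes were among the former. Leaving out any other single IR or IRLac library gave 0 or 1 entries called. All 5 IRLac libraries were below the other 4 IR libraries on this measure. IR replicate 5 is singled out by its level on this same list, so the values without it are a description and no test.

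**Figure D3:**
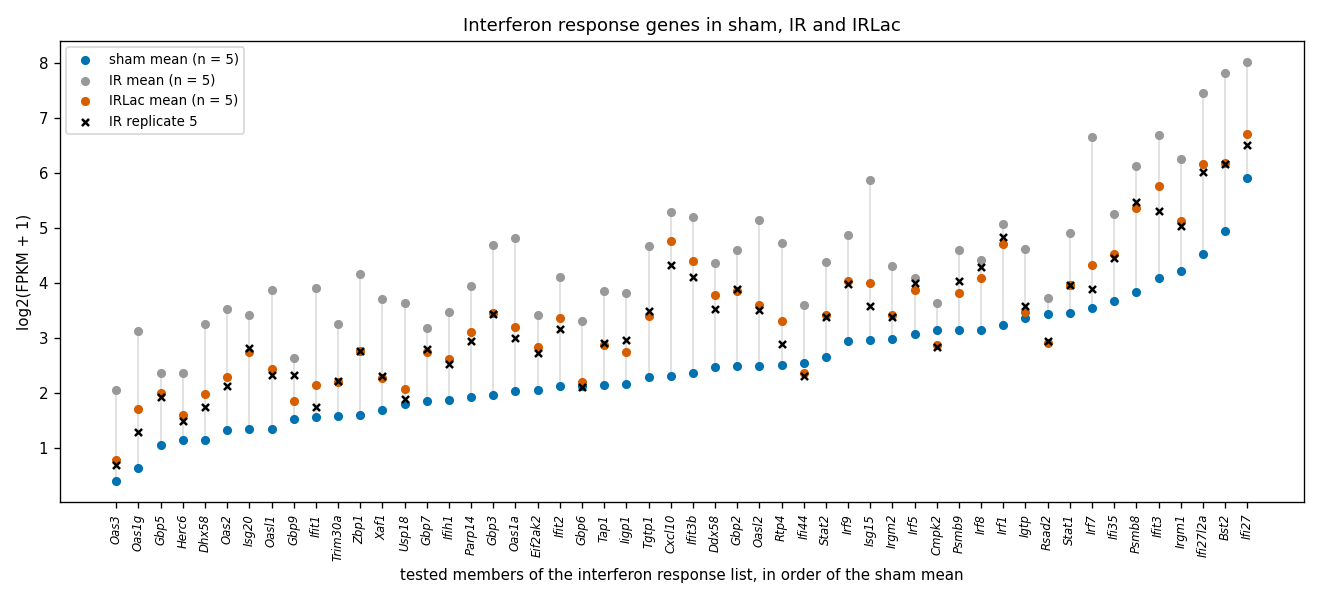
Mean log2(FPKM + 1) of each of the 52 tested interferon response genes in sham, IR and IRLac (points, n = 5 libraries each, genes in order of the sham mean), with crosses for IR replicate 5. The list median difference from sham was 0.88 in IRLac and 1.97 in IR, and the list level of IR replicate 5, at 0.8, lies within the IRLac range. The 46 genes lower than IR at an unadjusted p under 0.05 did not pass after adjustment.

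The promoters of 2 of these genes are shown because most of the list was below IR and its known regulators bind a short element. The windows are from RefSeq on build GRCm38.p6, run from 250 bases before to 50 after the annotated start on the gene's own strand, and have the core GAAANNGAA of the interferon-stimulated response element (or TTCNNTTTC on the other strand) in capitals. Overlapping matches run together.

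Isg15: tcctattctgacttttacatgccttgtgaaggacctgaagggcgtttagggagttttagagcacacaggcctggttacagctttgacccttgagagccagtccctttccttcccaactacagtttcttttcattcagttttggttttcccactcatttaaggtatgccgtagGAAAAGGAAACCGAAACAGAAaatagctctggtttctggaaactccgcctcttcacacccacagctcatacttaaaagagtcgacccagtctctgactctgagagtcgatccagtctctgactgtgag

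Ifit1: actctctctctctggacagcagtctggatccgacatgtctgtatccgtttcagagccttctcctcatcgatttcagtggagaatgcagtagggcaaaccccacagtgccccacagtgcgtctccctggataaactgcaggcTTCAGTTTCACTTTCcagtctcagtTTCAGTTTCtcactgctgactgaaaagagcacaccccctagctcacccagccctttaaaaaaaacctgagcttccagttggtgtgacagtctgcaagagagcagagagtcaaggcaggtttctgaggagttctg

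The Isg15 window is at chr4:156200769-156201068 on the minus strand and the Ifit1 window at chr19:34640639-34640938 on the plus strand, and each holds 3 matches. Of the 40 interferon genes with a RefSeq window, 24 held the core (60.0%), against 758 of 10534 windows of tested genes (7.2%). Of 27 proteasome genes with a window 4 held it (14.8%). A match describes the letters and is not evidence that a factor was bound.

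Genes of cell division remained above sham. All 42 mitosis genes were higher, 37 at least 2-fold, with a median of 1.75 against 1.93 in IR, and 33 of 36 DNA replication genes were higher, with a median of 1.16. Mki67 (gene ID 17345) encodes the proliferation marker Ki-67. Mki67 was at 0.34, 0.52, 0.25, 0.4 and 0.32 FPKM in sham replicates 1 to 5 and at 8.99, 6.09, 3.58, 5.93 and 7.73 FPKM in IRLac replicates 1 to 5. All IRLac libraries were above all sham libraries, at levels that are low in absolute terms. Ccnb1 (gene ID 268697), cyclin B1, which drives entry to mitosis, was at 0.292 ± 0.0536 FPKM in sham and 5.78 ± 1.87 FPKM in IRLac, a difference of 2.35 (SE 0.16, limma adjusted p = 1.4e-09). Kif20a, a motor of cell separation, was at 0.42 ± 0.148 FPKM in sham and 4.55 ± 0.901 FPKM in IRLac. Rrm2, which supplies deoxynucleotides, was at 1.71 ± 0.199 FPKM in sham and 13.9 ± 2.76 FPKM in IRLac, and Mcm5, part of the replicative helicase, at 1.5 ± 0.162 FPKM in sham and 8.68 ± 1.83 FPKM in IRLac. E2f2 and Mcm10 did not pass and were close to sham.

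Promoters of mitosis genes are known for the cell cycle homology region, searched here as TTTGAA, which reads as TTCAAA from the other strand, and for CCAAT boxes, which read as ATTGG from the other strand and can overlap it by 1 letter at the ends. The windows of Ccnb1 and of Plk1, a kinase of mitosis chosen for its window after its values were seen, show both cases, with matches in capitals.

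Ccnb1: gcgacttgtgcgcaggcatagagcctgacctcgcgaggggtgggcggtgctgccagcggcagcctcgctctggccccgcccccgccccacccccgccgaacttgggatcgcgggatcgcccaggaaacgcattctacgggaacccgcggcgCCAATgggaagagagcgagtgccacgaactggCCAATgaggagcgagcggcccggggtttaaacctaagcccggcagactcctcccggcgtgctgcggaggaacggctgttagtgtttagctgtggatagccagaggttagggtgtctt

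Plk1: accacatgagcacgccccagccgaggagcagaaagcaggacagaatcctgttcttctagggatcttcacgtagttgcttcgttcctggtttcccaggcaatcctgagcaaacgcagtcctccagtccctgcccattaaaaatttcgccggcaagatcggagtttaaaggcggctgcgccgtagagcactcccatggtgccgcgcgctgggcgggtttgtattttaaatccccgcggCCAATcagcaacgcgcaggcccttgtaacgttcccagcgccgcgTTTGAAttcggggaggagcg

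The Ccnb1 window is at chr13:100786437-100786736 on the minus strand and holds 2 CCAAT boxes and no TTTGAA, and the Plk1 window is at chr7:122159185-122159484 on the plus strand and holds 1 of each. Plk1 was at 0.786 ± 0.268 FPKM in sham and 7.6 ± 2.41 FPKM in IRLac. Of 35 mitosis genes with a window 27 held TTTGAA (77.1%), against 12.1% of all 10534 windows, and 27 held CCAAT (77.1%), against 38.4%. In the proteasome list 2 of 27 windows held TTTGAA (7.41%) and 10 held CCAAT (37.0%).

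Stress and cell death genes were mostly raised. Of 43 p53 targets and cell death genes 36 were higher, 18 at least 2-fold, and 7 were close to sham. Under all 4 scalings 23 were higher, 9 at least 2-fold, and 1 was close, and with median-ratio scaling 14 were close. Cdkn1a, the p53 target that halts division, was at 15 ± 3.02 FPKM in sham and 39.5 ± 13.2 FPKM in IRLac, Trp53 itself at 18.1 ± 1.51 FPKM in sham and 48.5 ± 9.25 FPKM in IRLac and the death effector Bak1 at 5.92 ± 0.667 FPKM in sham and 21.8 ± 3.45 FPKM in IRLac. Cdkn1a was at 18.7, 14.4, 14, 17.1 and 10.8 FPKM in sham replicates 1 to 5 and at 57.2, 44.1, 21.4, 41.3 and 33.6 FPKM in IRLac replicates 1 to 5, with replicate 3 just above the sham range. Perp, Casp9, Ccng1 and Gsdme were close to sham and not called. In the list of heat shock proteins and immediate early genes 25 of 36 were higher and 7 lower, 18 and 6 of them under all 4 scalings. The small heat shock protein gene Hspb1 was at 38.2 ± 6.98 FPKM in sham and 385 ± 94.9 FPKM in IRLac and the factor gene Klf4 at 3.74 ± 0.355 FPKM in sham and 10.7 ± 1.29 FPKM in IRLac. Of the 7 that fell, Hspd1, Hspe1 and Hspa9 encode mitochondrial chaperones, and the others were Klf15, Klf9, Dnaja1 and Hsph1. Dnajb1 and Hspa1a were close to sham and not called.

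Genes of folding in the endoplasmic reticulum depended on the scaling. Of 31 genes 16 were close, 15 higher and 3 lower, and the median of 0.20 turned to -0.15 with median-ratio scaling, which gave 6 higher and 13 lower. Under all 4 scalings 4 were close, 4 higher and 3 lower, and the close ones are a share near the 13.9% of all entries. Hspa5 (gene ID 14828) encodes BiP, the main chaperone of this compartment. Hspa5 was at 192, 273, 223, 231 and 258 FPKM in sham replicates 1 to 5 and at 304, 241, 249.5, 214 and 241 FPKM in IRLac replicates 1 to 5. The groups overlapped, with an interval of -0.22 to 0.39, and IR was at 312 ± 74 FPKM. Dnajb9, a target of the stress sensor IRE1, was at 27.5 ± 3.66 FPKM in sham and 27.4 ± 3.1 FPKM in IRLac. The gene at least 2-fold higher was Asns (2.33 ± 0.522 FPKM in sham and 11.1 ± 3.38 FPKM in IRLac), the asparagine synthetase of the ATF4 branch, and other genes of that branch, Trib3, Chac1, Atf4 and Ddit3, rose by 0.54 to 0.89.

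Antioxidant genes were more often lower than higher, with 22 of 39 down, 14 up and 8 close, and 20, 5 and 2 under all 4 scalings. Hmox1, which degrades heme, was at 27.3 ± 4.01 FPKM in sham and 53 ± 18.5 FPKM in IRLac, Mt2, a metallothionein, at 75.7 ± 18.1 FPKM in sham and 309 ± 45.9 FPKM in IRLac and Gpx8, a peroxidase of the endoplasmic reticulum, at 10.3 ± 0.337 FPKM in sham and 29.6 ± 4.03 FPKM in IRLac. Nqo1, a target of the factor NRF2, fell from 41.1 ± 5.01 to 23.9 ± 7.1 FPKM, with replicate 3 inside the sham range. Ftl1, ferritin light chain, was close to sham (-0.31 to 0.13).

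Genes of NAD metabolism rose and fell in near-equal number on the FPKM scale, 12 and 11 of 28, and 7 and 11 did so under all 4 scalings. Nnmt (0.916 ± 0.746 FPKM in sham and 8.08 ± 2.29 FPKM in IRLac), which methylates nicotinamide, rose at least 2-fold. The NAD consumers Parp3 (9.53 ± 0.826 FPKM in sham and 34.4 ± 4.51 FPKM in IRLac), Bst1, Cd38 and Parp14 did so too. Of the genes that make NAD from tryptophan, Haao (-1.90) and Kmo (-1.85) fell, Kynu rose (0.51), and Qprt was close to sham and not called. The rise of Kynu did not hold under all 4 scalings. Falls were also called for the mitochondrial deacetylase gene Sirt3 (-1.05) and Nampt (-0.35), the rate-limiting enzyme of salvage. Sirt1, Sirt4 and Sirt5 were close to sham and not called. In the clock list 8 of 19 genes were higher and 6 lower (3 and 6 under all 4 scalings), with opposite signs between Arntl (9.54 ± 1.74 FPKM in sham and 3.92 ± 0.821 FPKM in IRLac), the activator, and Per1 (4.52 ± 1.94 FPKM in sham and 12.5 ± 2.27 FPKM in IRLac), a repressor it drives. The hour at which kidneys were taken is not given in the sources used here, so its part in these values was not tested. Nr1d1, another target of Arntl, fell by 0.66.

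The list of the sodium pump and ammonia production, which the tubule uses to drive transport and excrete acid, had 9 of 15 genes lower, 5 higher and none close to sham, with a median of -0.47. The cholesterol synthesis list was also divided, with 12 of 24 genes lower and 7 higher, 12 and 3 of them under all 4 scalings. Idi1 (-1.77) and Cyp51 (-1.74) fell the most. Fdft1 (7.36 ± 0.814 FPKM in sham and 12.2 ± 0.928 FPKM in IRLac) rose while Ebp (49 ± 1.51 FPKM in sham and 28.4 ± 1.69 FPKM in IRLac) fell, although both serve the same pathway, and Pmvk was close to sham (-0.11 to 0.24).

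Among lists with at least 15 tested genes, the proteasome had the largest share of members at the sham level. Of 33 genes 29 were close to sham, and 23 were so under all 4 scalings, against 13.9% of all entries. Close members could still be called: 14 of the 33 were called higher and 2 lower. With median-ratio scaling 26 were lower and none higher. The list median was 0.10, or -0.25 with median-ratio scaling. Psmc4 (gene ID 23996) encodes an ATPase of the regulatory particle. Psmc4 was at 77.5, 71, 79.3, 81.2 and 77.8 FPKM in sham replicates 1 to 5 and at 77.9, 77.4, 75.4, 83.9 and 76.6 FPKM in IRLac replicates 1 to 5. IRLac replicate 4 was just above the sham range and the other 4 lay within it, with an interval of -0.08 to 0.11. Psmb2 (0.43) and Psma5 (0.47) rose by the most of the list and missed the threshold with median-ratio scaling. The immunoproteasome subunit gene Psmb10, counted with antigen presentation and induced by interferon, was at 13.2 ± 2 FPKM in sham and 45 ± 6.62 FPKM in IRLac.

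Ribosomal protein genes separated by compartment. Of 46 genes of the mitochondrial ribosome 39 were close to sham, 18 lower and 7 higher, with a median of -0.08, and 12 remained close under all 4 scalings. With median-ratio scaling 40 were lower and none higher. Mrps15 was at 41 ± 1.86 FPKM in sham and 41.3 ± 1.95 FPKM in IRLac, Mrpl4 at 90.9 ± 2.73 FPKM in sham and 66.8 ± 6.46 FPKM in IRLac and Mrpl40 at 22.6 ± 1.66 FPKM in sham and 29.6 ± 2.1 FPKM in IRLac. Of 44 genes of the cytosolic ribosome 43 were higher, 37 of them under all 4 scalings. On the FPKM scale 1 was at least 2-fold higher and none close, with a median of 0.69. Median-ratio scaling gave a median of 0.33, with 37 called higher and 22 close to sham. Rps4x was at 328 ± 12 FPKM in sham and 627 ± 50.8 FPKM in IRLac and Rpl23 at 227 ± 6.34 FPKM in sham and 426 ± 36.5 FPKM in IRLac. Rps18, which has processed copies in the genome, was not called, with IRLac replicate 5 at 66 FPKM and the others at 275 to 403 FPKM, and was called higher without that library (1.13, adjusted p = 0.0183).

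Transcription factors of nephron development were higher in 17 of 29 cases, a share like the 58.0% of all entries, and 7 were at least 2-fold higher. The calls of 11 higher and 3 lower genes held under all 4 scalings. The list includes the signal gene Wnt4 (0.9 ± 0.329 FPKM in sham and 8.39 ± 1.83 FPKM in IRLac), which starts tubule formation in the embryo, and Runx1 (0.292 ± 0.0798 FPKM in sham and 4.55 ± 1.27 FPKM in IRLac). Lhx1 (-0.88), Emx1 (-0.70) and Irx1 (-0.59) fell, and 9 genes were close to sham, among them Pou3f3 and Hoxa9 (-0.18 to 0.12).

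**Figure D4:**
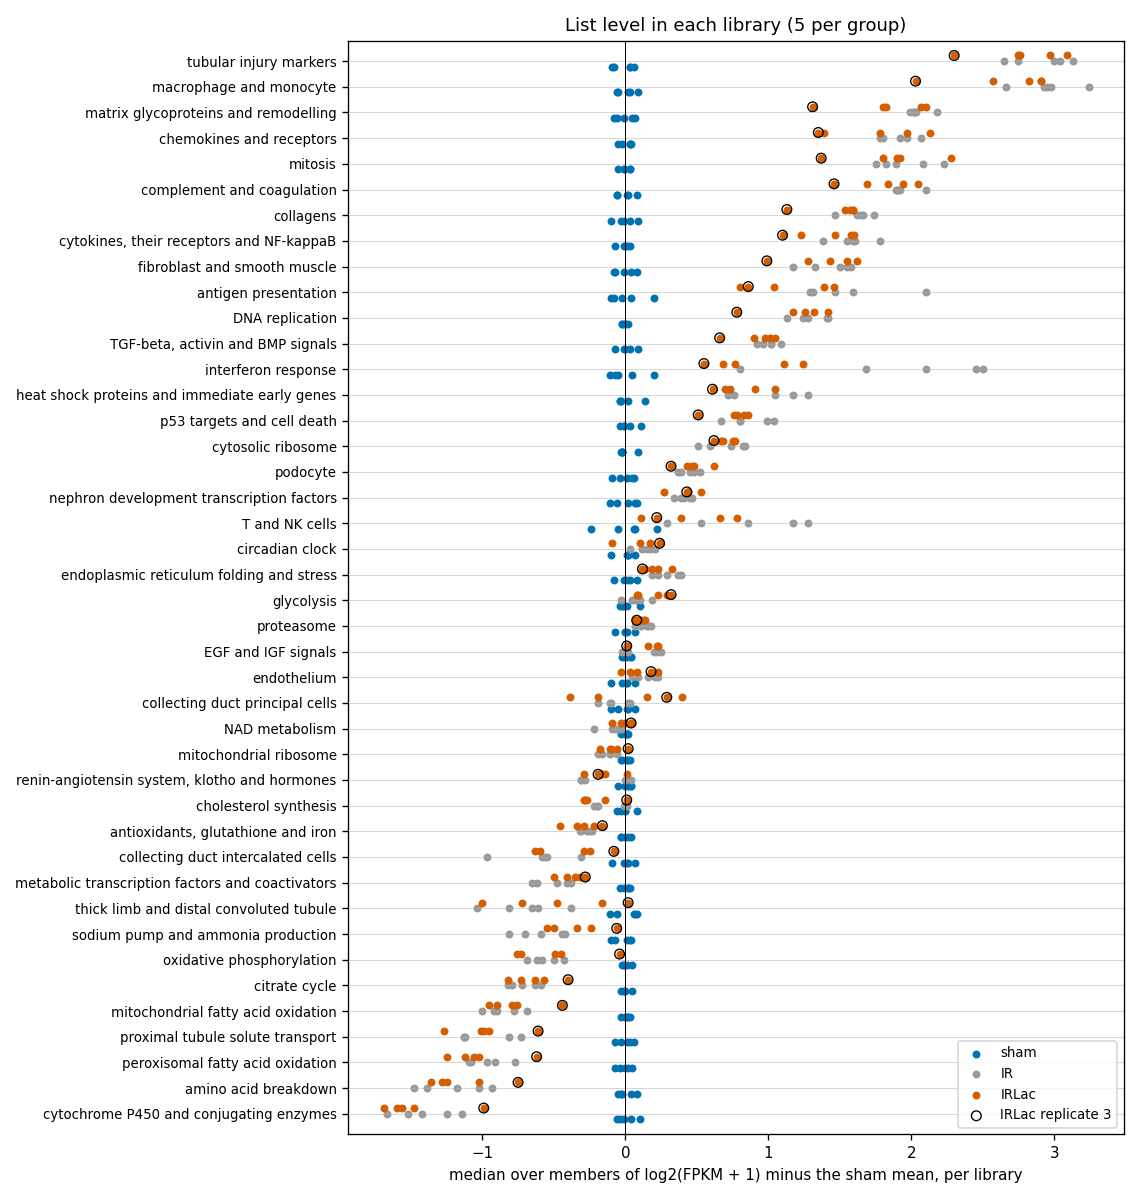
Level of each list in each library (points, 5 sham, 5 IR and 5 IRLac libraries), as the median over tested members of log2(FPKM + 1) minus the sham mean. Injury, macrophage and matrix lists lie to the right in all IRLac libraries, and P450, amino acid and peroxisome lists to the left. IRLac replicate 3 (circled) is nearest to sham in many lists, such as oxidative phosphorylation at -0.04. With median-ratio scaling IRLac medians shift down by unequal amounts, and those of glycolysis, proteasome, endothelium, principal cells, clock, EGF and IGF signals and endoplasmic reticulum folding turn negative.

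Some entries were far from sham in IR and close to it in IRLac. Under the rule for naming, the 8 with the largest IR difference among entries close to sham in IRLac were Gzmb, Gsdmc3, H2-Q8, Mov10, H2-T24, Parp11, Nap1l5 and Stxbp4. Gzmb, granzyme B of cytotoxic lymphocytes, was at 0.356 ± 0.415 FPKM in sham and 0.38 ± 0.26 FPKM in IRLac and at 1.75 ± 0.936 FPKM in IR. Gzmb was at 0.2, 0.15, 1.08, 0.05 and 0.3 FPKM in sham replicates 1 to 5 and at 0.39, 0.15, 0.2, 0.81 and 0.35 FPKM in IRLac replicates 1 to 5, and sham replicate 3 was the highest of all 10. H2-Q8 and H2-T24, class I genes with near-identical copies, were at 33.4 ± 4.06 FPKM in sham and 33.6 ± 6.81 FPKM in IRLac and at 2.56 ± 0.203 FPKM in sham and 2.71 ± 0.623 FPKM in IRLac. Mov10, an RNA helicase with antiviral activity, was at 8.91 ± 1.1 FPKM in sham and 10.7 ± 1.23 FPKM in IRLac and at 14.7 ± 2.93 FPKM in IR, and Parp11 at 2.83 ± 0.426 FPKM in sham and 3.43 ± 0.571 FPKM in IRLac and at 4.95 ± 1.22 FPKM in IR. With quantile scaling the IRLac difference from sham turned to -0.49 for Gsdmc3, -0.46 for H2-T24 and -0.29 for Parp11. Stxbp4, at 4.75 ± 0.443 FPKM in sham and 3.61 ± 0.396 FPKM in IRLac and 2.86 ± 0.147 FPKM in IR, was still called lower than sham in IRLac. Without IRLac replicate 3 Mov10 (0.31, adjusted p = 0.0328) and Nap1l5 (-0.29, adjusted p = 0.0464) were called too, the latter also without sham replicate 5 (-0.29, adjusted p = 0.0467). In all, 2282 entries were close to sham in IRLac and called in IR. The rule looks at both groups against the same sham libraries, so these values are a description and none of the 8 passed the direct test of IRLac against IR.

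**Figure D5:**
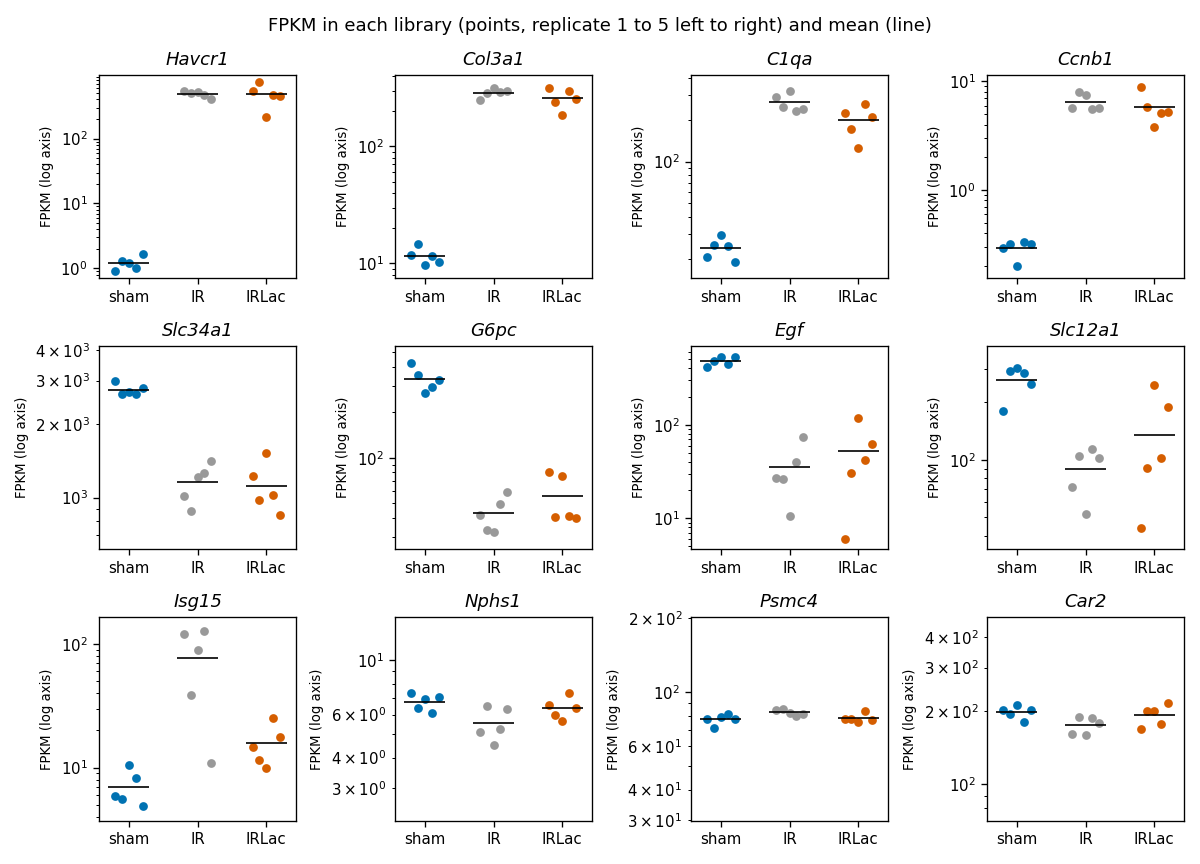
FPKM of 12 genes in each sham, IR and IRLac library (points, 5 per group, log axis) with the group mean (line). Havcr1, Col3a1, C1qa and Ccnb1 are above sham in all IRLac libraries, Slc34a1, G6pc and Egf below it, and Slc12a1, Isg15, Nphs1, Psmc4 and Car2 overlap sham on the FPKM scale. Median-ratio scaling turns the difference of Psmc4 from 0.02 to -0.34.

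The largest falls also included Dnase1 (-3.69), an enzyme that digests free DNA, and Akr1c14 (-3.63), an aldo-keto reductase. Hba-a1 (233 ± 194 FPKM in sham and 13.2 ± 3.58 FPKM in IRLac) and Hba-a2 (158 ± 130.0 FPKM in sham and 7.96 ± 2.4 FPKM in IRLac), alpha globins of red blood cells and near-identical copies, completed the 8. Hba-a1 was at 88.5, 109, 493, 84.1 and 391 FPKM in sham replicates 1 to 5 and at 12.1, 14, 13.4, 18.3 and 8.32 FPKM in IRLac replicates 1 to 5. Sham replicates 3 and 5 were several times higher than the other sham libraries, and every IRLac library was below every sham library. All 5 red blood cell genes tested of 9 listed fell. Their summed level was 233 to 1367 FPKM in sham, 56.4 to 223 in IR and 27.3 to 48.6 in IRLac, and the part of blood left in the tissue was not tested.

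Markers of other cells and neighbouring tissues were counted beside these results. Of 17 T and NK cell genes tested of 25 listed, 6 were higher, 2 of them under all 4 scalings, and none lower, with a summed level of 11.4 to 24.5 FPKM in sham, 44.6 to 94.6 in IR and 27.0 to 65.7 in IRLac. Both shares of higher genes were below those of all entries, 58.0% and, under all 4 scalings, 25.5%. Cd2 was listed at 0 in all sham and IRLac libraries. Cd3e, a chain of the T cell receptor complex, was at 0.704 ± 0.427 FPKM in sham and 1.2 ± 0.642 FPKM in IRLac and was not called. All 6 neutrophil genes tested of 15 listed rose, but Lcn2 made up most of the summed level (2.6 to 7.3 FPKM in sham, 186 to 440 in IRLac), and the neutrophil genes Ly6g, Mpo and Elane were at or near 0 in both groups. B and plasma cell genes summed to at most 7.0 FPKM in IRLac. Skeletal muscle genes summed to at most 5.0 FPKM in IRLac, with Myh2 and Tnnc2 listed at 0 in all sham and IRLac libraries, and the 1 adrenal gene tested of 11 summed to at most 1.3 FPKM, with Dbh listed at 0 in both groups. Adipose genes other than Fabp4 and Lpl, which endothelium and tubule also express, averaged at most 0.632 FPKM, that of Plin4, and Plin1 was listed at 0 in all IRLac libraries. Of 9 urothelium genes tested of 11 listed, 2 were higher and 1 lower, with sums of 5.5 to 27.3 FPKM in sham and 9.2 to 23.4 in IRLac. Of 5 liver genes tested of 10 listed, 4 fell and Fgb, a fibrinogen chain that injured tubules also make, rose (1.2 ± 0.466 FPKM in sham and 16.4 ± 6.94 FPKM in IRLac). Sums of the liver list were 106 to 126 FPKM in sham and 54.6 to 123 in IRLac, with replicate 3 the nearest to sham.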

How the data were processed

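RNA of 19 mouse kidney libraries was measured by sequencing. The authors deposited 1 table of FPKM for 19287 entries. HISAT, StringTie 1.0.4 and build mm9 are named, per the submitters' processing notes, without a stated role, while strand, multi-mapping and read depth are not stated there. FPKM totals were 545590 to 584798 and are no measure of depth. Another deposited table gives the percent identity of each gene to a transcription factor database, used at 95% or more for factor families.

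Gene symbols were taken by gene ID from a RefSeq table of GRCm38 (18238 entries named, 933 unnamed loci, 116 unmatched). Of 1482 genes in 52 lists 14 were not found. Tested entries reached 1 FPKM in 4 or more of 19 libraries. The test was made with limma 3.58.1 (R 4.3.3) on log2(FPKM + 1), all 4 groups in 1 model with a mean-variance trend and 15 residual degrees of freedom. P-values were adjusted by Benjamini-Hochberg over 13594 entries. Fold changes on this scale understate changes of low genes. An entry was close to sham if its 95% interval lay within 0.5 log2 units. The 2-fold bound was chosen after seeing the data. The members and lists were chosen with earlier results of these data known.

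Named genes were a set of kidney genes, the 2 called genes with the smallest adjusted p and the gene with the tightest interval among those not called in each list, the 8 largest rises and falls, and 8 entries called in IR and close to sham in IRLac. Low values recurred in steps in 93 genes, and 68.5% of 368 values lay within 0.1 of a whole step, too few to recover reads. Tested on simulated data for IRLac against sham over 13594 genes, the fit recovered 82.1% of 1.5-fold, 97% of 2-fold and 100% of 4-fold changes, with 11 false calls among 197. The simulation changed only a small part of the genes, none of them near 0, with normal noise and no shift between groups. In the data most entries were called and the scaling mattered, so these rates may not hold there. Alternatives were another pseudocount, other filters, TPM, median-ratio and quantile scaling, only the groups compared, library weights, a replicate block and leaving out each library. Promoters came from RefSeq on GRCm38.p6.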

Additional observations from a re-analysis of the deposited data

Results flagged for a closer look

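Within the groups of 5 sham and 5 IRLac libraries, single libraries far from the others in 30 of 494 groups of values are given here with the range of the other 4. Chance alone flags about 1 in 20 such groups. IRLac replicate 3 accounted for 14 of the 30. In this library Wt1 was at 3.26 FPKM (others 4.83 to 5.28), Bak1 at 15.83 (others 21.85 to 24.27), Klf4 at 8.39 (others 11.02 to 11.64), Rps4x at 538.35 (others 634.92 to 667.8) and Mov10 at 8.53 (others 10.75 to 11.5). It was high for Dpys at 4.32 (others 1.65 to 2.26), Sdhc at 242.24 (others 175.46 to 192.78), Idh3g at 177.92 (others 136.67 to 146.21), Gpi1 at 242.69 (others 196.39 to 206.89), Fbln5 at 51.4 (others 37.35 to 39.85) and Alb at 1.06 (others 0.36 to 0.56). Its list levels, as log2 minus the sham mean, were 1.13 for collagens (others 1.54 to 1.59), 0.51 for p53 targets and cell death (others 0.76 to 0.86) and -0.08 for liver genes (others -1.34 to -1.25). Lama1 stood out in IRLac replicate 2 at 3.78 FPKM (others 2.6 to 2.91) and Hba-a2 in IRLac replicate 5 at 3.86 (others 8.47 to 10.16).

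In sham replicate 1 the values that stood out were Vcam1 at 3.66 FPKM (others 3.06 to 3.21), Kdr at 15.96 (others 11.62 to 12.78), Slc13a1 at 136.15 (others 115.51 to 119.7), Igfbp3 at 140.21 (others 98.33 to 110.47) and Igf1r at 28.07 (others 25.36 to 26.1). In sham replicate 2 they were Tnf at 0.38 (others 0.09 to 0.13), Kirrel at 2.76 (others 2.17 to 2.3) and Runx1 at 0.43 (others 0.24 to 0.29). In sham replicate 3 they were Irf7 at 17.98 (others 8.37 to 11.01), Gpi1 at 218.8 (others 195.26 to 201.04), Atp2b1 at 7.11 (others 8.36 to 8.53), Gzmb at 1.08 (others 0.05 to 0.3) and the cytosolic ribosome list at 0.09 on the log2 scale (others -0.03 to -0.02). Ccl9 stood out in sham replicate 4 at 0.66 FPKM (others 0.36 to 0.42).

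The unnamed locus BGI_novel_G000424 was called between IRLac and IR, with a log2 difference of -1.38 (limma adjusted p = 0.019). It was listed at 0 in all 5 IRLac libraries and at 1.64 ± 0.481 FPKM in IR. A value of 0 in this table can be a failed estimate, since 27 entries had a 0 in some library while their median was above 5 FPKM.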

How the results depend on the processing

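Of the 25 settings, those with both IRLac and sham changed or refitted gave each named gene a new value against sham. Over these, 137 of 199 named genes kept their side of the threshold throughout. Their called differences also kept their direction, while changes of sign between 2 fits that both missed the threshold were not counted. Of the other results, 13 genes fell short of the threshold somewhere, 32 newly passed and 22 changed sign with a call in either fit. Entries higher in IRLac than in sham numbered 4489 with median-ratio and 4141 with quantile scaling, and entries lower 4689 and 4822. Without a filter 9845 entries were close to sham, since many unexpressed entries then count as close. Leaving out single libraries gave 7591 to 7922 entries higher, 2131 to 2384 lower and 4445 to 4801 close. Between IRLac and IR no entry was called with a mean of at least 5 FPKM (0), with library weights (0) or with the replicate block (0), and leaving out single libraries gave 0 to 116 entries, the latter without IR replicate 5. At an unadjusted p under 0.05 the same comparison had 786 entries. The cause of these changes was not tested. Depth is not known, so no counting interval could be given.

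The replicate numbers in the labels did not pair IRLac with sham: correlations of same-numbered deviations were 0.122, -0.0723, 0.0934, 0.135 and 0.0887. With the replicate block 7789 entries were higher, 2219 lower and 4770 close.

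With median-ratio scaling the list medians changed sign for glycolysis (-0.15), principal cells (-0.31), endothelium (-0.24), EGF and IGF signals (-0.16), endoplasmic reticulum folding (-0.15), clock (-0.05) and proteasome (-0.25), and with quantile scaling for principal cells (-0.23), endothelium (-0.27), EGF and IGF signals (-0.21), T and NK cells (-0.1) and clock (-0.25). A mean of at least 5 FPKM gave -0.06 for EGF and IGF signals and -0.34 for clock, and TPM 0.01 for NAD metabolism. Leaving out single libraries gave -0.06 to 0.17 for principal cells and -0.06 to 0.01 for NAD metabolism. Genes are listed here as changing sign only if the fit before or after scaling called them. With median-ratio scaling they were Pecam1 (-0.16), Dab2 (-0.3), Mrps15 (-0.34), Gabpa (-0.31), Gpi1 (-0.3), Pmvk (-0.27), Magi2 (-0.2), Ptprb (-0.26), Atp6ap2 (-0.34), Lama1 (-0.21), Cd59a (-0.31), Perp (-0.34), Sirt4 (-0.31) and Psmc4 (-0.34). With quantile scaling they were Wt1 (-0.33), Pecam1 (-0.08), Gabpa (-0.34), Pmvk (-0.26), Car2 (0.18), Magi2 (-0.45), Ptprb (-0.41), Lama1 (-0.45), Acvr2a (-0.35), Ccl25 (-0.47), E2f2 (-0.44), Sirt4 (-0.29), Gsdmc3 (-0.49), H2-T24 (-0.46) and Parp11 (-0.29).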

Other observations

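Transcription factors as a whole were counted by the families of the authors' deposited identity table. Of 666 factors tested 437 were higher in IRLac than in sham, 54 lower and 237 close to sham, with a median difference of 0.36 against 0.30 over all entries. Over all entries 58.0% were higher, 16.8% lower and 35.8% close, so the close share was like that of all entries. The bZIP family, whose members include stress and activation factors, had 28 of 38 genes higher, 14 of them at least 2-fold, and 1 lower. At least 2-fold higher were 12.3% of all entries. Zinc finger factors of the C2H2 type formed the largest family, with 9 of 207 at least 2-fold higher. In that family 82 were close to sham, a share near that of all entries. Nuclear receptors of the thyroid receptor type, several of which respond to lipids, had 9 of 18 genes lower, 6 higher and a median of -0.28. Homeobox factors were higher in 44 of 69 cases, 10 at least 2-fold, shares near the 58.0% and 12.3% of all entries.

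The following factors are among the largest changes in either direction and were chosen after their values were seen. Atf3, a stress factor of the bZIP family, was at 1.3 ± 0.767 FPKM in sham and 9.96 ± 2.37 FPKM in IRLac and Junb at 17.1 ± 3.23 FPKM in sham and 97 ± 23.9 FPKM in IRLac. Spi1, a factor of myeloid cells, was at 4.4 ± 0.536 FPKM in sham and 29.3 ± 7.34 FPKM in IRLac, and Nfkb2 and Relb, of the NF-kappaB family, at 7.36 ± 0.456 FPKM in sham and 43.9 ± 7.24 FPKM in IRLac and at 3.25 ± 0.562 FPKM in sham and 26.6 ± 5.57 FPKM in IRLac. Foxj1, a factor of ciliated cells, was at 0.276 ± 0.104 FPKM in sham and 5.87 ± 1.27 FPKM in IRLac. Ppard, a receptor for fatty acids, was at 16.3 ± 4.69 FPKM in sham and 4.05 ± 4.09 FPKM in IRLac, a log2 difference of -2.17. Klf15, a regulator of amino acid and glucose metabolism, fell by 1.15 on the log2 scale and Esrrb, an estrogen-related receptor, by 1.15.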
